A study of Rattus norvegicus with 2 samples.

Results

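The interleukins and interleukin receptors were measured in rat thymus with 1 Clariom S array for cocaine and 1 for control, each taken here as 1 rat. Both were male Sprague-Dawley rats, 8 weeks old. The cocaine rat received 20 mg/kg/day cocaine hydrochloride through the tail vein for 7 days. The control rat is given saline by the methods and is titled as unstimulated in the labels. The members are the transcript clusters whose gene symbol in the annotation of the array starts with Il and a digit, without Il7r and Il2ra. This rule gave 69 of 23188 transcript clusters, each from a different gene: 33 ligands, 30 receptor chains and 6 decoy receptors, binding proteins or antagonists. Each group is a single array. The paper had several rats per group and does not say how many of them gave RNA to an array. Every difference therefore compares these 2 arrays only, and neither a replicate error nor a test could be given.

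Interleukins are secreted proteins by which leukocytes and stromal cells signal to each other. Most bind a private receptor chain that is joined by a shared chain, such as the common gamma chain (Il2rg), gp130 (Il6st) or the IL-1 receptor accessory protein (Il1rap), and signal through JAK kinases and STAT factors or through MyD88. In the thymus, stromal IL-7 keeps early thymocytes alive, and stromal IL-15 supports natural killer cells and some T cells.

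The level of a member is the log2 of its deposited intensity, and a difference is the cocaine value minus the control value on that scale. Probe sets differ in how brightly they bind, so a percentile among all transcript clusters places a signal on its array and does not measure an amount of mRNA. As a yardstick for low signal, a transcript cluster was called dim where its mean level was at or below 6.57, the 95th percentile of 1155 odorant and vomeronasal receptor genes. These genes belong to sensory neurons. By this rule 47.7% of all transcript clusters were dim, against 59.4% of the members. Both arrays fitted thymus by its markers: the 8 measured thymocyte markers ran from 11.46 to 18.87 on the cocaine array and from 11.11 to 18.87 on the control array, none of them dim. The 3 measured B cell markers, which would be bright in spleen, the organ named in the note on RNA extraction, lay between 6.57 and 7.82 on the cocaine array and between 6.53 and 7.84 on the control array. Of the 10 marker lists, those of adipocytes and neutrophils differed most in their summed level. For 3 adipocyte markers it was 11.92 in the cocaine thymus and 13.00 in the control thymus. For 6 neutrophil markers it was 12.03 in the cocaine thymus and 12.42 in the control thymus. The neutrophil markers went both ways, with Np4 (-1.01) and Fcnb (-1.02) lower, S100a8 (0.37) and Camp (0.07) higher, and S100a9 and Elane identical. Of the adipocyte markers Fabp4 (-1.08) and Adipoq (-1.19) were lower and Lep was identical. The paper had already reported lower Fabp4 and Adipoq from its array data, so the adipocyte sum partly restates that result. The part of adipocytes and neutrophils in the values of the interleukin genes was not tested.

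Few members differed by more than 1.5-fold between the 2 arrays. Of the 69 members, 1 exceeded its control level by over 1.5-fold in the cocaine thymus (1.45%) and 2 fell short of it to that extent (2.90%). That left 66 inside these limits, 19 of them with identical deposited values. Among all transcript clusters the shares were 2.09% higher and 2.51% lower, so the counts of the members are near the background. By more than 2-fold, 1 member was higher and 0 were lower, against 0.129% and 0.22% of all transcript clusters. The 3 members were Il9r, Il9 and Il17f, and all 3 were dim. Of all dim transcript clusters, 5.03% differed by more than 1.5-fold in either direction, and of the brighter ones 4.2% did. None of the 28 brighter members differed by as much. The next member below the limit was Il34, higher by 1.45-fold, and the next among brighter members was Il15, lower by 1.42-fold.

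**Figure D1:**
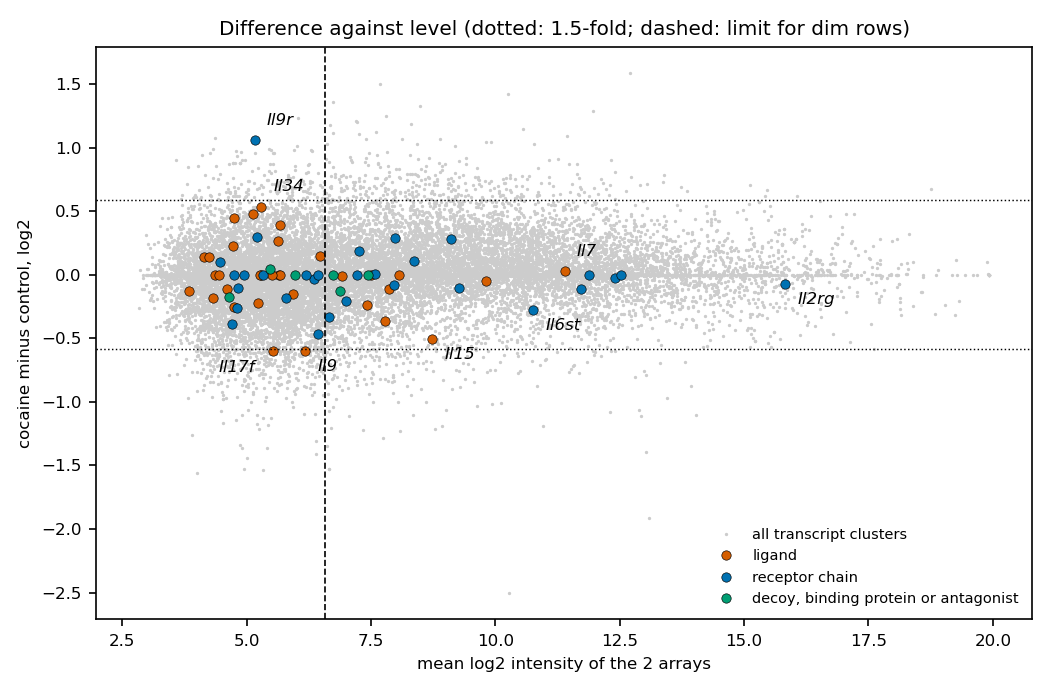
Cocaine minus control difference (y, log2) against the mean level of the 2 arrays (x, log2 intensity) for all transcript clusters (grey) and the 69 members, coloured by role, with dotted lines at 1.5-fold and a dashed line at the limit for dim signals. Il9r stands above the upper line, Il9 and Il17f lie just under the lower line, and all 28 members to the right of the dashed line lie within 1.5-fold.

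Il9r encodes the private receptor chain of IL-9, a cytokine that acts on T cells and mast cells. The intensity of Il9r was 51.6 in the cocaine thymus and 24.8 in the control thymus. On the log2 scale these are 5.69 in the cocaine thymus and 4.63 in the control thymus, a difference of 1.06 or 2.08-fold. Its percentile among all transcript clusters was 34.2 on the cocaine array and 14.2 on the control array, so the signal was low on both. The ligand gene Il9 lay on the other side. Its level was 5.87 in the cocaine thymus and 6.47 in the control thymus, 1.51-fold lower. Il17f, which encodes a cytokine that recruits neutrophils, was 5.23 in the cocaine thymus and 5.84 in the control thymus, 1.52-fold lower. The differences of Il9 (-0.60) and Il17f (-0.60) passed 1.5-fold (0.585 on the log2 scale) narrowly, and both lay inside it under each of the other 3 scalings tried, at -0.581 to -0.559. Il9r stayed past 2-fold under all 3. The 5 measured markers of mast cells and eosinophils, cells that can respond to IL-9, included 4 dim ones, with a summed level of 8.12 on the cocaine array and 8.22 on the control array. Their part in these differences was not tested.

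Il15 is the brightest member with a difference close to the limit. It encodes a ligand made by stromal and myeloid cells. The intensity of Il15 was 354 in the cocaine thymus and 502 in the control thymus. These are levels of 8.47 in the cocaine thymus and 8.97 in the control thymus, a difference of -0.50 or 1.42-fold lower, and it lay at percentile 66.6 on the cocaine array and 71.3 on the control array. The difference was -0.56 after quantile normalization, the largest change among the scalings, and still within 1.5-fold. In bulk RNA, fewer cells of a type and less RNA per cell cannot be told apart. Of 5 measured markers of thymic epithelium 3 were higher and 2 lower in the cocaine thymus, with a summed level of 14.27 on the cocaine array and 14.14 on the control array. Of 8 macrophage markers 6 were higher, none was lower and 2 were identical, and their summed level was 12.60 on the cocaine array and 12.50 on the control array. Of these 8, Csf1r, Cd14 and Adgre1 were dim. The part of either cell type in the value of Il15 was not tested.

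The promoters of Il15, Il9 and Il9r are shown here because these genes gave the largest differences among the brighter members and among the receptor and ligand pairs. They come from RefSeq on GRCr8 and run from 250 bases before to 50 bases after the start of the gene, on the strand of the gene. Capitals mark matches to the ISRE core GAAANNGAA, an element of interferon-responsive genes, and to the AP-1 motif TGANTCA, each searched on both strands. In Il15 the first base of the ISRE core lies 26 bases before the start and the first base of the AP-1 match 176 bases before it. Il9 has 1 AP-1 match, 133 bases before the start, and Il9r has no match to either.
Il15 (chr19:42544456-42544755, plus strand): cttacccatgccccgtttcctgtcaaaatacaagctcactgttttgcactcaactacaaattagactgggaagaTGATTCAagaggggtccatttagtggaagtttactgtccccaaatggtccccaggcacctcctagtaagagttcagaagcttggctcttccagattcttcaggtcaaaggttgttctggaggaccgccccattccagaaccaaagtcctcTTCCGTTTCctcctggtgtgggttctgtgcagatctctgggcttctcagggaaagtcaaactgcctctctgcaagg
Il9 (chr17:8116778-8117077, plus strand): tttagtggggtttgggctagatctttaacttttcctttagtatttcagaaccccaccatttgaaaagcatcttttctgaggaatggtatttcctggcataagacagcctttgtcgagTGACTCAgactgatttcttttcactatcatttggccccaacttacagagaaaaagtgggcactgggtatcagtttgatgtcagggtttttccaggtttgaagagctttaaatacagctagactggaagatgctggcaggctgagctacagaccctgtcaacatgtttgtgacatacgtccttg
Il9r (chr10:15935906-15936205, plus strand): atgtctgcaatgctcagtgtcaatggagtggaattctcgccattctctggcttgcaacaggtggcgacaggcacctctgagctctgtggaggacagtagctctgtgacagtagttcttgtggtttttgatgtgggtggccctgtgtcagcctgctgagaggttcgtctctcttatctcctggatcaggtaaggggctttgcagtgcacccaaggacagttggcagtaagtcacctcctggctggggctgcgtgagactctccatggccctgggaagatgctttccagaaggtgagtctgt

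Ligands and receptor chains differed in how bright they were. The median level of the 33 ligands was 5.57 on the cocaine array and 5.50 on the control array, at median percentiles of 32.0 and 29.9 on the same arrays. The median level of the 30 receptor chains was 6.70 on the cocaine array and 6.96 on the control array, at median percentiles of 49.3 and 52.6 on them. Of the ligands 24 were dim and 9 were brighter, while of the receptor chains 14 were dim and 16 were brighter. The 4 brightest members on both arrays were Il2rg, Il17ra, Il10rb and Il4r, all of them receptor chains at percentile 90.1 or above. Next came 4 more at percentile 77.1 or above, the receptor chains Il21r and Il6st and the ligands Il7 and Il33. Since the 2 roles have different probe sets, these medians describe signal only.

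**Figure D2:**
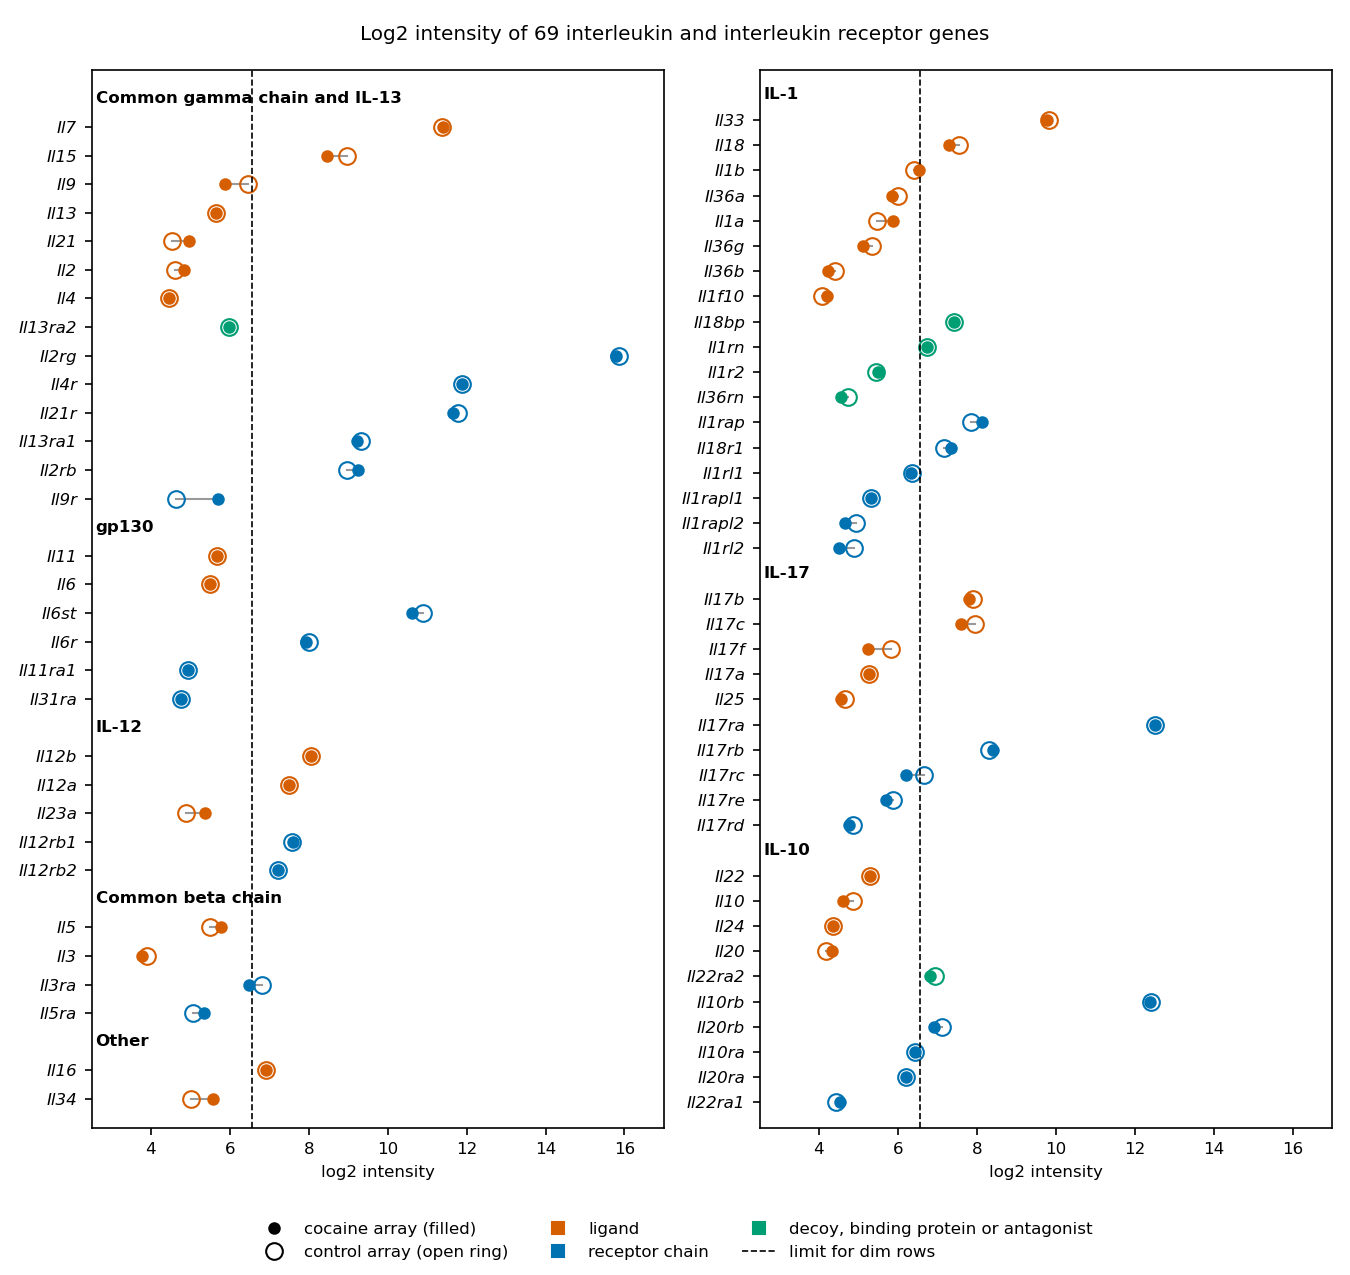
Log2 intensity (x) of each of the 69 members (rows) on the cocaine array (filled points) and the control array (open rings), grouped by family and coloured by role, with a dashed line at the limit of 6.57 for dim signals. The rings and points of most members coincide or nearly so, the receptor chains Il2rg, Il17ra, Il10rb and Il4r lie farthest to the right, and most ligands lie left of the dashed line.

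Among the genes of the common gamma chain family, taken here with IL-13 and its receptors, the shared chain itself had the strongest signal of all members. The level of Il2rg was 15.78 in the cocaine thymus and 15.85 in the control thymus, a difference of -0.07. It lay at rank 282 on the cocaine array and 255 on the control array. Il4r, the alpha chain for IL-4 and IL-13, was 11.88 on both arrays with the same deposited value, 3759. Il21r, the private chain for IL-21, was 11.67 in the cocaine thymus and 11.77 in the control thymus. Il13ra1, which pairs with the Il4r product to bind IL-4 and IL-13, was 9.22 on the cocaine array and 9.33 on the control array. Apart from Il4r with its identical values, these chains differed by at most 0.11 on the log2 scale. Il2rb, the beta chain of the IL-2 and IL-15 receptors, was higher, at 9.25 in the cocaine thymus and 8.96 in the control thymus, 1.22-fold. Il2rb is also a marker of natural killer cells. The 5 measured markers of natural killer and innate lymphoid cells had a summed level of 10.40 on the cocaine array and 10.39 on the control array, with 4 of them dim, and Prf1 held the same value on both. The part of these cells in the value of Il2rb was not tested.

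The ligands of this family were mostly dim. Il7, the exception besides Il15, was 11.40 in the cocaine thymus and 11.37 in the control thymus, a difference of 0.03 that turned to -0.03 after quantile normalization. It lay at percentile 87.7 on the cocaine array and 87.8 on the control array, the highest of all ligands. Il2, the T cell growth factor, was 4.85 in the cocaine thymus and 4.62 in the control thymus. Il21, a product of helper T cells, was 4.98 in the cocaine thymus and 4.53 in the control thymus, 1.36-fold higher but dim on both. Il4 (4.46) and Il13 (5.64), the cytokines of type 2 immunity, each held 1 value on both arrays, as did the decoy receptor gene Il13ra2 (5.97). Over the whole family of 14 members, 5 were higher, 5 lower and 4 identical.

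In the gp130 family, taken here with the receptor gene Il31ra, the shared chain was again the brightest member. Il6st was 10.62 in the cocaine thymus and 10.89 in the control thymus, 1.21-fold lower. Il6r, the private chain for IL-6, was 7.93 in the cocaine thymus and 8.01 in the control thymus. Both lay lower in the cocaine thymus, and neither reached 1.5-fold. The other 4 members of this family were dim and identical on the 2 arrays. They were the ligand genes Il6 (5.51) and Il11 (5.66) and the receptor genes Il11ra1 (4.94) and Il31ra (4.76).

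The cytokines of the IL-12 family direct helper T cells towards the production of interferon gamma or IL-17. Il12a, which encodes the p35 subunit of IL-12, was 7.51 on both arrays, and Il12b, which encodes the p40 subunit shared with IL-23, was 8.06 on both. Among the receptor chains, Il12rb1 was 7.59 on both arrays to 2 decimals, with intensities of 193 on the cocaine array and 192 on the control array, and Il12rb2 held the same value of 7.21 on both. All 4 were above the limit for dim signals. Il12a, Il12b and Il12rb2 had identical deposited values. Il23a, the p19 subunit of IL-23, was the single member of the family to differ by more than 0.01. Its level was 5.36 in the cocaine thymus and 4.88 in the control thymus, 1.39-fold higher, and it was dim.

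IL-3 and IL-5 signal through the common beta chain and act on mast cell, basophil and eosinophil lineages. Il3 was 3.78 in the cocaine thymus and 3.91 in the control thymus, the dimmest of the 69 members. Il5 was 5.77 in the cocaine thymus and 5.50 in the control thymus. Il5ra, its receptor chain, was 5.36 on the cocaine array and 5.06 on the control array. Ligand and receptor of IL-5 thus lay higher together, both dim. Il3ra was 6.48 in the cocaine thymus and 6.82 in the control thymus, 1.26-fold lower, with a mean just above the limit for dim signals.

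The last 2 ligands use receptors of other families. Il34, a ligand of the CSF1 receptor on macrophages, was 5.57 in the cocaine thymus and 5.03 in the control thymus, 1.45-fold higher and dim. Csf1r itself was 6.57 in the cocaine thymus and 5.93 in the control thymus, 1.56-fold higher and also dim. Il16, whose product binds CD4, was 6.91 on the cocaine array and 6.92 on the control array.

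The IL-1 family is the largest here, with 18 members, of which 12 were dim. None differed by more than 1.5-fold, and 7 were higher, 9 lower and 2 identical. Il33, an alarmin of stromal cells, was 9.78 in the cocaine thymus and 9.83 in the control thymus, the brightest member of the family. Il18, which induces interferon gamma, was 7.31 in the cocaine thymus and 7.54 in the control thymus, 1.18-fold lower. Il1b, a cytokine of inflammation, was 6.54 in the cocaine thymus and 6.40 in the control thymus. Il1a, which acts on the same receptor, was 5.87 in the cocaine thymus and 5.48 in the control thymus. Both IL-1 ligand genes thus lay higher in the cocaine thymus, and both were dim. The 3 IL-36 ligand genes, known from epithelia, lay lower and were dim, with differences of -0.15 for Il36a, -0.18 for Il36b and -0.22 for Il36g. The brightest of them, Il36a, was 5.85 in the cocaine thymus and 6.00 in the control thymus. Il1f10, which encodes IL-38, was 4.21 in the cocaine thymus and 4.07 in the control thymus.

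Among the receptor chains of this family, Il1rap, the accessory chain shared by the receptors for IL-1, IL-33 and IL-36, was 8.13 in the cocaine thymus and 7.84 in the control thymus, 1.22-fold higher. Il18r1, the binding chain for IL-18, was 7.35 in the cocaine thymus and 7.17 in the control thymus, while its ligand gene lay lower. Il1rl1, which encodes ST2, the receptor for IL-33, was 6.33 in the cocaine thymus and 6.36 in the control thymus. Il1rl1 and the remaining chains were dim. Il1rl2, the receptor for IL-36, was 4.51 in the cocaine thymus and 4.90 in the control thymus, 1.31-fold lower, in the same direction as its 3 ligand genes. Il1rapl1 and Il1rapl2, which encode accessory proteins known from neurons, stood at 5.32 and 4.67 on the cocaine array, against 5.32 and 4.93 on the control array. Of the genes that restrain the family, Il1rn, the IL-1 receptor antagonist, was 6.73 on both arrays and Il18bp, which binds IL-18, was 7.44 on both. The decoy receptor gene Il1r2 was 5.49 in the cocaine thymus and 5.44 in the control thymus, and Il36rn was 4.55 on the cocaine array and 4.73 on the control array.

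In the IL-17 family more members were lower than higher on these 2 arrays. Of its 10 members 7 were lower in the cocaine thymus, 1 was higher and 2 were identical, with a median difference of -0.11, while the median of all transcript clusters was 0.00. Of its 8 members with unequal values 87.5% were lower, against 49.2% of all transcript clusters with unequal values. The count of 7 lower members was the same under all 3 other scalings. It was added after seeing the data, and no test stands behind it. Il17c, an epithelial ligand, was 7.60 in the cocaine thymus and 7.97 in the control thymus, 1.29-fold lower. Il17b was 7.80 in the cocaine thymus and 7.91 in the control thymus. Il25, which encodes IL-17E, was 4.55 on the cocaine array and 4.66 on the control array, and Il17a held the value 5.26 on both. Only Il17f among these ligands passed 1.5-fold, and it was dim. Il17ra, the chain shared by most receptors of the family, was 12.53 on both arrays with an identical deposited value of 5904. Il17rc, which joins it to bind IL-17A and IL-17F, was 6.20 in the cocaine thymus and 6.67 in the control thymus, 1.38-fold lower. Il17re, the receptor for IL-17C, was 5.71 in the cocaine thymus and 5.89 in the control thymus, so this ligand and its receptor both lay lower. Il17rd was 4.77 on the cocaine array and 4.87 on the control array. The higher member was Il17rb, the receptor for IL-25, at 8.41 in the cocaine thymus and 8.30 in the control thymus. The differences were small and 6 of the 10 members were dim, and of all dim transcript clusters with unequal values 59.2% were lower. Of the 4 brighter members 2 were lower, 1 was higher and 1 was identical.

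IL-10 restrains immune responses, and its relatives IL-20, IL-22 and IL-24 act mainly on epithelia. Il10 had an intensity of 24.5 in the cocaine thymus and 29.3 in the control thymus. These are levels of 4.61 in the cocaine thymus and 4.87 in the control thymus, a difference of -0.26, within the range of the sensory receptor genes. The paper, which lists PCR primers for IL-10, reports significantly increased expression of this cytokine in the cocaine group. The dim array value thus lay on the other side of that result, and why was not tested. Its receptor chains were of unequal brightness. Il10rb, the chain shared with IL-22, was 12.38 in the cocaine thymus and 12.41 in the control thymus, while the private chain Il10ra held the value 6.43 on both arrays. Il20 was 4.32 in the cocaine thymus and 4.18 in the control thymus, and Il22 (5.29) and Il24 (4.37) were identical on both. Il20rb was 6.91 in the cocaine thymus and 7.11 in the control thymus, 1.15-fold lower. Il20ra was identical at 6.20, and Il22ra1, a receptor of epithelial cells, was 4.52 on the cocaine array and 4.42 on the control array. Il22ra2, whose secreted product binds IL-22, was 6.81 in the cocaine thymus and 6.93 in the control thymus. No member of this family differed by as much as 0.30 on the log2 scale, and 4 of its 10 members had identical values.

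Identical deposited values were found for 19 of the 69 members, a share of 27.5% against 27.2% of all transcript clusters. These were 9 of 33 ligands, 7 of 30 receptor chains and 3 of 6 decoys, binding proteins and antagonists. The ligands were Il4, Il6, Il11, Il12a, Il12b, Il13, Il17a, Il22 and Il24. The receptor chains were Il4r, Il10ra, Il11ra1, Il12rb2, Il17ra, Il20ra and Il31ra, and the others were Il1rn, Il13ra2 and Il18bp. They spanned dim and bright signals, 12 dim and 7 brighter, with Il17ra at 12.53 the brightest and Il24 at 4.37 the dimmest. The 23 rows of background probes in the table were also identical on the 2 arrays, all of them, with levels between 3.13 and 7.47. A difference of 0 for these 19 members was therefore not read as a measure of how alike the 2 rats were.

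Of the 50 members with unequal values, 30 were lower (60.0%) and 20 higher in the cocaine thymus, while of all transcript clusters with unequal values 49.2% were lower. Brighter members were lower more often than their background, while dim members lay nearer to theirs. Of 21 brighter members with unequal values 15 were lower (71.4%) and 6 higher, while of all such brighter transcript clusters 41.0% were lower. After quantile normalization these shares were 81.0% of the members and 48.5% of all, and with each array centred on its median they were 61.9% and 36.9%. Of 29 dim members with unequal values 15 were lower (51.7%) and 14 higher, while of all such dim transcript clusters 59.2% were lower. After quantile normalization the shares of dim signals were 48.3% of the members and 51.9% of all. The 6 brighter members that lay higher were Il7, Il2rb, Il1rap, Il18r1, Il17rb and Il12rb1. Of these Il7 and Il12rb1 differed by 0.03 or less and turned lower after quantile normalization. Of the lower ones, Il16 (-0.01) and Il10rb (-0.02) no longer lay lower with each array centred on its median, at 0.01 and 0.00. Some differences in either direction were smaller than the spread of transcript clusters of like brightness. Examples are Il2rg (-0.07 against a spread of 0.14) and Il17rb (0.11 against 0.16). No test stands behind these counts, and members that share cell types are not independent.

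**Figure D3:**
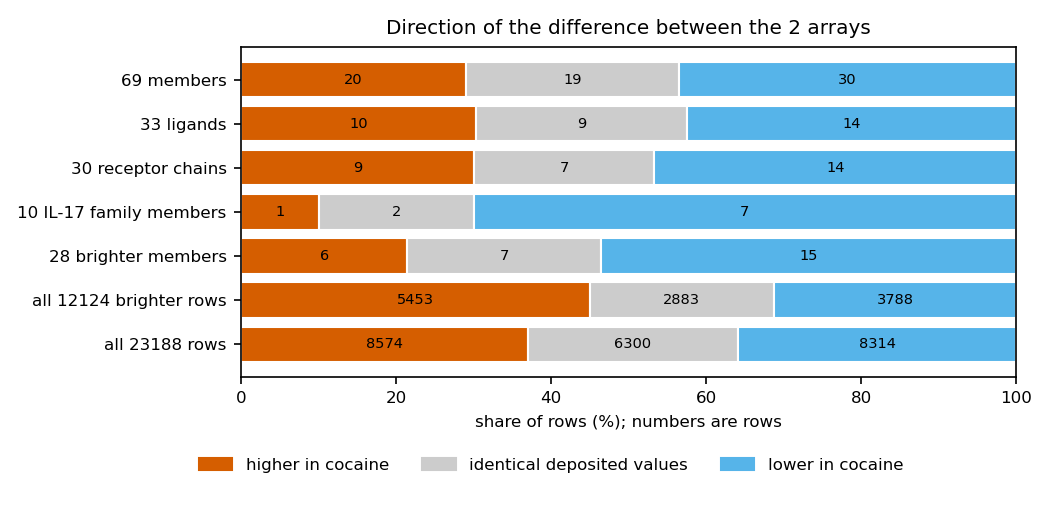
Share of transcript clusters (x, percent) that were higher on the cocaine array (orange), identical on both arrays (grey) or lower on the cocaine array (blue), for all members, for ligands, receptor chains, the IL-17 family and brighter members, and for all transcript clusters, with the number in each part. The grey parts of all members and of all transcript clusters are close to equal (27.5% and 27.2%), and the blue part is larger among the 28 brighter members (15) than the orange part (6).

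The differences of ligands and of receptor chains did not stand apart in their medians. The median difference was 0.00 for both roles, as it was for all transcript clusters, because identical values filled the middle. Without identical values it was -0.08 over 24 ligands and -0.07 over 23 receptor chains, against 0.01 over all transcript clusters. The background depended on brightness, with a median of -0.05 over dim transcript clusters and 0.04 over brighter ones. Of the ligands 10 were higher and 14 lower (58.3% of unequal values), and of the receptor chains 9 were higher and 14 lower (60.9%). The share was 49.2% of all transcript clusters, 59.2% of dim ones and 41.0% of brighter ones. Since 24 of 33 ligands and 14 of 30 receptor chains were dim, the share of ligands lay near that of dim transcript clusters. The median size of a difference among unequal values was 0.23 for ligands, 0.18 for receptor chains and 0.17 for all transcript clusters. By their means the ligands lay at -0.02 and the receptor chains at -0.01.

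Many of these genes lie side by side in the genome. In the gene order of GRCr8, 30 of the 69 members formed 11 groups in which at most 2 other protein-coding genes separated neighbours. The largest group held Il36g, Il36a, Il36b, Il36rn, Il1f10 and Il1rn. In this group 4 members were lower in the cocaine thymus, Il1f10 was higher, Il1rn was identical, and only Il1rn was not dim. The group of Il4, Il13 and Il5, cytokines of type 2 immunity, was dim throughout, with 2 identical values and Il5 higher. Il17re and Il17rc were neighbours and both lower, whereas the neighbours Il17a and Il17f were identical and lower.

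A promoter was found for 53 of the 69 members, and 4 short motifs were searched on both strands of its 300 bases. The AP-1 motif TGANTCA was found in 6 of 26 ligand promoters (23.1%), in 0 of 25 receptor chain promoters and in 7.33% of all 27457 promoters. The 6 ligands were Il1a, Il9, Il11, Il15, Il16 and Il18. Of these Il9, Il15, Il16 and Il18 were lower in the cocaine thymus, Il1a was higher and Il11 identical. Il16 differed by only -0.01 and turned higher, at 0.01, with each array centred on its median. Of all ligands with unequal values 58.3% were lower, and a link between motif and direction was not tested. The TATA box motif TATAAA was found in 6 ligand promoters (23.1%) and 2 receptor chain promoters (8.0%), against 14.3% of all promoters. The GAS motif TTCNNNGAA, an element bound by STAT factors, was found in 3 ligand and 3 receptor chain promoters, 11.5% and 12.0% against 8.68% of all promoters. The ISRE core GAAANNGAA was found in 7 member promoters, 13.2% against 9.50% of all. The ISRE core can overlap a GAS match, and a match describes letters in this window and not a site in use.

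The partners and signalling genes of these receptors were measured beside them, as 38 genes in 4 lists. Over 1.5-fold higher in the cocaine thymus were 2 of them (5.26%), and none of the 38 was lower to that extent. Among all transcript clusters the shares were 2.09% higher and 2.51% lower. No test stands behind these counts. The 2 higher genes of the lists were Csf1r, given above, and Socs3, an inhibitor that gp130 signalling induces. Socs3 was 9.52 in the cocaine thymus and 8.85 in the control thymus, 1.59-fold higher and not dim. Cish, an inhibitor that STAT5 induces, was 8.33 in the cocaine thymus and 8.77 in the control thymus. Pias1, an inhibitor of STAT activity, was 12.05 in the cocaine thymus and 12.56 in the control thymus, 1.43-fold lower. Of the 9 measured inhibitor genes 3 were higher, 4 lower and 2 identical. All 10 measured kinases and STATs were above the limit for dim signals and within 1.5-fold, 5 of them higher, 2 lower and 3 identical. Jak1 (16.34), Jak3 (9.26) and Stat3 (11.27) held identical values on both arrays. Stat5b, which transmits signals of the common gamma chain receptors, was 14.41 in the cocaine thymus and 14.10 in the control thymus, and Stat6, which transmits those of IL-4, was 11.42 in the cocaine thymus and 11.90 in the control thymus. Of the 11 partners with other names 6 were higher, 4 lower and 1 identical. Csf2rb, the common beta chain, was 7.37 in the cocaine thymus and 6.89 in the control thymus, 1.39-fold higher, while the receptor gene Il3ra was lower. Sigirr, which restrains receptors of the IL-1 family, was 9.82 in the cocaine thymus and 9.39 in the control thymus. Lif, a ligand of the gp130 family, was 4.76 in the cocaine thymus and 5.33 in the control thymus, a difference of -0.56, and was dim. Osmr, a receptor chain that pairs with gp130, differed by -0.32, and Csf2ra, which pairs with the common beta chain, by -0.30. Of the 8 genes that act behind the IL-1 and IL-17 receptors, 3 were higher, 1 was lower, and Myd88, Tollip, Irak1 and Irak4 were identical. The lower one, Traf6, was 11.95 in the cocaine thymus and 12.17 in the control thymus.

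**Figure D4:**
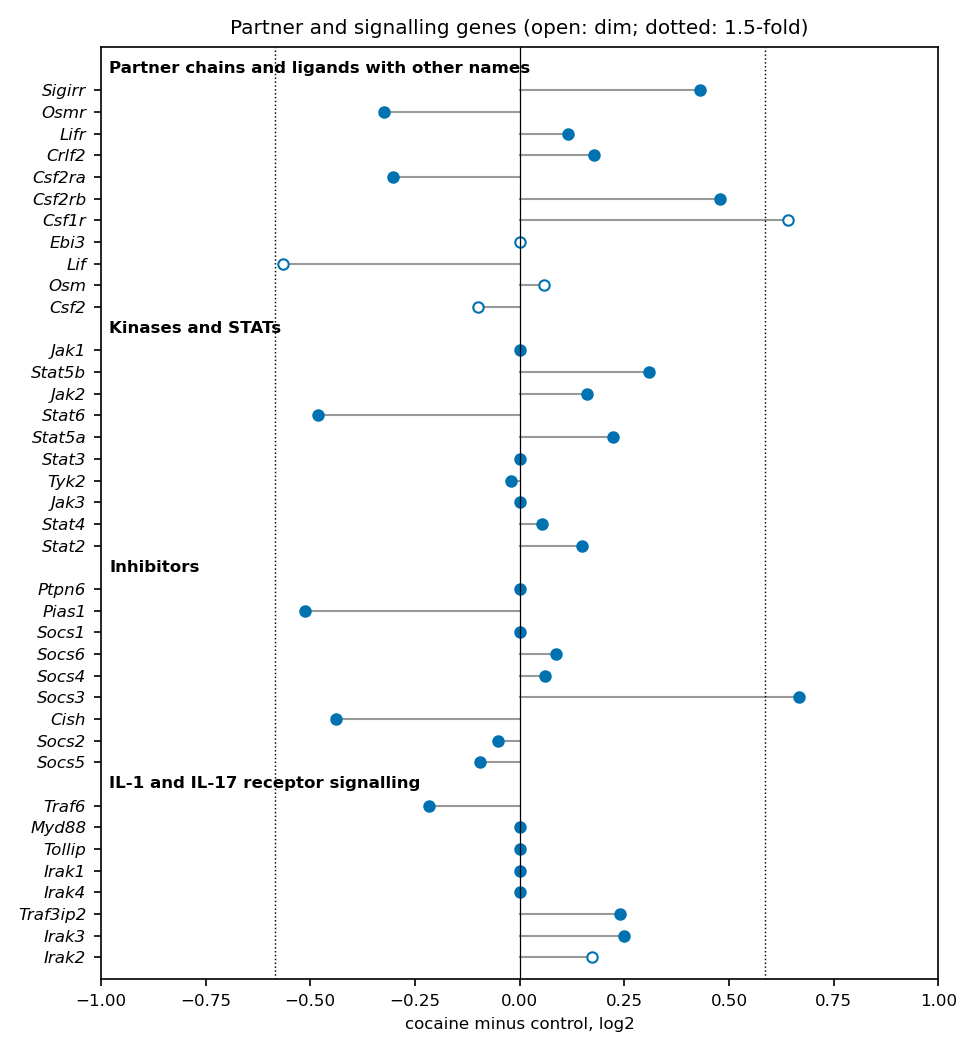
Cocaine minus control difference (x, log2) of 38 partner and signalling genes (rows) in 4 lists, with open points for dim signals and dotted lines at 1.5-fold. Csf1r (open) and Socs3 (filled) lie past the right line, and no gene lies past the left one.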

How the data were processed

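Biotin-labelled RNA from cocaine thymus and from control thymus was hybridized to Clariom S arrays, 1 per group. From these arrays the authors made linear intensity values with the TAC software, and the table they deposited has 1 value per transcript cluster and array. Its version, background correction, normalization and genome build are not stated in the sources used here.

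The deposited intensity values had near-equal medians (cocaine 107, control 108). Quantile normalization gives differences to rows with identical deposited values, so log2 values with no further scaling were used here. Of 24834 rows, 1646 control rows were left out. Symbols came from the platform annotation, and all 69 members matched RefSeq (GRCr8) by gene number with no changed symbol. RefSeq lists 10 further protein-coding genes with such symbols that were not analysed here, Il1r1 and Il15ra among them.

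The members and lists were chosen with earlier results of these data known. The rule for named members took those past 1.5-fold, the 10 brightest ligands, the 15 brightest receptors, decoys or antagonists, Il10, Il1b, Il7 and Il15, and the others were then given by family. Alternatives were quantile normalization, median centring, a lowess curve, a limit of 2-fold, and leaving out dim or identical values. The steps were tested on simulated data whose planted differences lay well past the 1.5-fold limit. Differences near that limit, such as those of Il9 and Il17f, were not tested in this way. Precision is limited by having 2 arrays. Tools were matplotlib 3.10.9, statsmodels 0.14.6, pandas 2.3.3 and numpy 2.4.6 under Python 3.11.15.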

Additional observations from a re-analysis of the deposited data

How the results depend on the processing

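No paired analysis was possible because both groups consist of 1 array, and no replicate could be left out. The count of 1 member higher by more than 1.5-fold was the same under the 3 other scalings and at 2-fold, and was 0 without dim signals. The count of 2 lower members was 0 after quantile normalization, with each array centred on its median, after a lowess curve, at 2-fold and without dim signals. Il9 and Il17f are these 2 members, and their differences moved to between -0.581 and -0.559, just inside 1.5-fold.

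The median difference of ligands, 0.00, was -0.0510 without dim signals and -0.0807 without identical values. The median difference of receptor chains, 0.00, was -0.0703 without identical values. Of 87 other values for 29 named members, 81 were on the same side of 1.5-fold as the main value. Each of these changed from it by less than the spread of transcript clusters of like brightness. The 6 others moved inside the limit (Il9 and Il17f), and 0 changed sign while past it. The largest change that a scaling made to a member was 0.07. The counts of lower members among those with unequal values, added after seeing the data, were 28 to 31 of 50 for all members, 13 to 17 of 21 for brighter members and 7 of 8 for the IL-17 family. With 1 array per group, differences between animals cannot be told apart from those between treatments.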
